A study of Homo sapiens with 10 samples.

Results

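The Frizzled and LRP Wnt receptors FZD1, FZD2, FZD3, FZD4, FZD5, FZD6, FZD7, FZD8, LRP5 and LRP6 were examined in IRF8 knockout MV4-11 cells. These 10 genes were taken by symbol from the 19590 genes of the normalized RNA-Seq counts, and each was found once. MV4-11 is an established human acute myeloid leukemia (AML) cell line, and IRF8 is a transcription factor of the interferon regulatory factor family that steers the formation of monocytes and dendritic cells. The control group (4 libraries) consisted of MV4-11 cells infected with the control vector. The IRF8 KO group (4 libraries) consisted of IRF8 knockout clones, made by lentiviral infection with lentiCRISPRv2 (Cas9 and a guide RNA against IRF8), puromycin selection and limiting dilution. All libraries thus came from 1 parental line, and the infected cells had passed puromycin selection. The paper names fewer such clones than the 4 knockout libraries, made with different guides, so knockout libraries may share a clone. The sources do not state which clone or guide stands behind which knockout library, or whether the replicates of a group were separate cultures. The p-values therefore measure the spread between these libraries, which may be technical or between clones, and 4 libraries need not be 4 separate knockouts. The comparison asks which components of the Wnt receptor complex differ in transcript level after loss of IRF8. RNA was measured in bulk, so that fewer cells that express a gene and less RNA per cell cannot be told apart.

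Frizzled proteins are membrane receptors with several transmembrane passes whose outer cysteine-rich domain binds the lipid of a Wnt ligand. In the β-catenin branch of the pathway a Wnt brings a Frizzled together with the single-pass co-receptor LRP5 or LRP6, Dishevelled is recruited to the Frizzled, Axin to the tail of the LRP, and β-catenin escapes degradation. Other branches use Frizzleds without LRP5 or LRP6 to set planar cell polarity or calcium signals. By sequence FZD1, FZD2 and FZD7 form a subfamily, as do FZD3 with FZD6, FZD5 with FZD8, and FZD4 with FZD9 and FZD10. In leukemia, Wnt signaling is mainly known for its part in the self-renewal of leukemic stem cells.

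Between 39560072 and 65519047 reads on genes lay behind each library, with a median of 53881275 in the control and 51308898 in the knockout group, and 1 read was worth between 0.804 and 1.35 normalized counts. The targeted gene IRF8 had 36891, 15192, 43016 and 22535 normalized counts in control replicates 1 to 4, and 6377, 2401, 12903 and 7820 in the knockout replicates. The groups did not overlap, with a log2 fold change of -2.11 (SE 0.51, limma adjusted p = 0.0222), while the knockout libraries still carried IRF8 transcript. The paper reports that IRF8 protein was absent from the knockout cells by Western blot and that the IRF8 ChIP-Seq peaks were lost. The adjusted p of IRF8 was 0.0585 without control replicate 1, 0.0575 without control replicate 3 and 0.053 without IRF8 KO replicate 1. Knockout libraries also stood apart by chromosome. The median log2 difference of tested genes from control was -0.92 on chromosome 20 and -0.33 on chromosome 21. It was -5.55 on chromosome Y, over 11 tested genes, and 0.16 on chromosome 13. On chromosome 18 it was 0.13 and 0.11 in IRF8 KO replicates 1 and 2 and -0.59 and -0.57 in replicates 3 and 4, and on chromosome 5 it was 0.11 and 0.10 in the former and 0.34 and 0.40 in the latter. None of the 10 receptor genes lies on these chromosomes, and the called receptors were the same relative to their chromosome medians. Shifts shared by all knockout libraries cannot be told apart from the loss of IRF8 in these data. Their part in the receptor differences was not tested.

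Within the receptor family the knockout libraries showed a change of composition. FZD2 and FZD7 were lower and FZD3 and LRP5 were higher than in control, each with groups that did not overlap. FZD1 was lower in the group mean but did not pass the threshold, FZD5 and FZD6 did not differ beyond the spread between libraries, LRP6 was uneven among the knockout libraries, and FZD4 and FZD8 rested on few reads. Of the 10 receptors, 8 averaged at least 10 normalized counts and entered the test, and FZD4 and FZD8 did not. At an adjusted p below 0.05, 4 of the 8 passed, against 18.2% of all 13110 tested genes. FZD2 and FZD7 were the 2 lower ones, beside a share of 9.56% of all tested genes called lower, and FZD3 and LRP5 were the 2 higher ones, beside 8.65% called higher. By the criteria the study used (p below 0.01 before adjustment and a change of 2-fold or more), FZD2 and FZD7 passed, which is 2 of 8 beside 10.9% of all tested genes. The groups did not overlap in 5 of the 8 tested receptors (FZD1, FZD2, FZD3, FZD7 and LRP5) beside 25.3% of all tested genes. The median log2 fold change of the 8 was -0.24, and that of all tested genes was -0.00094 with quartiles of -0.30 and 0.30. Counts were not scaled by transcript length, so the levels of different receptors are not ranked here.

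**Figure D1:**
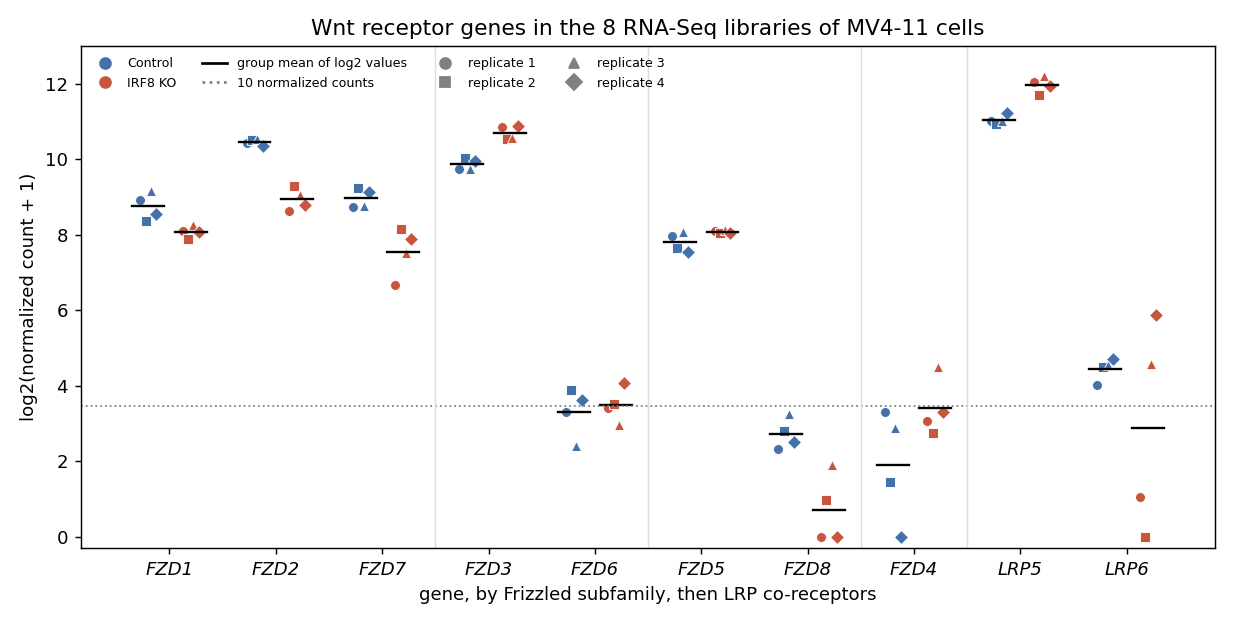
Normalized counts of the 10 receptor genes on a log2(count + 1) axis, 1 marker per library with its shape giving the replicate number, control in blue and IRF8 KO in red, black bars at the group mean of the log2 values, and a dotted line at 10 normalized counts. The red points lie below the blue ones for FZD1, FZD2, FZD7 and FZD8, above them for FZD3 and LRP5, and are widely spread for LRP6.

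FZD2, a receptor used in both the β-catenin and the non-canonical branches, showed the largest change of the called receptors. It had 1384, 1447, 1485 and 1313 normalized counts in control replicates 1 to 4, and 394, 625, 525 and 445 in the knockout replicates. Every knockout library was thus below every control library by a wide gap, and the control libraries were close together. The mean fell from 1407 ± 75.6 (SD, n = 4) to 497 ± 101 (SD, n = 4), 35.4% of the control, with a log2 fold change of -1.52 (SE 0.16, adjusted p = 0.000421).

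FZD7, its close relative and the Frizzled best known for β-catenin signaling in stem and progenitor cells, fell as well. It had 428, 598, 434 and 559 normalized counts in the control replicates, and 101, 281, 181 and 234 in the knockout replicates. The groups were separate, and in both of them replicates 2 and 4 were above replicates 1 and 3. The mean fell from 505 ± 86.7 to 199 ± 77.1 (SD, n = 4 each), 39.5% of the control, with a log2 fold change of -1.42 (SE 0.31, adjusted p = 0.0146).

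FZD1, the third gene of this subfamily, had 481, 328, 572 and 377 normalized counts in the control replicates, and 272, 234, 305 and 271 in the knockout replicates. The lowest control library was only slightly above the highest knockout library, and the control libraries were the more scattered ones, with replicates 1 and 3 high. The means were 439 ± 109 and 270 ± 28.8 (SD, n = 4 each), so the knockout mean was 61.5% of the control. The log2 fold change of -0.67 (SE 0.21) had an adjusted p of 0.0548 and was not called, and a two-sided exact permutation test of the 4 against 4 values gave p = 0.0286, the smallest value this design allows. In a fit blocked by replicate number the adjusted p was 0.0213 at an SE of 0.16, so the call changed with the block. Without control replicate 2 it was 0.0342 at a log2 fold change of -0.80. Within replicates 1 and 3 the difference was -0.86 on the log2 scale, and within replicates 2 and 4 it was -0.48.

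FZD3, a receptor mainly known for axon guidance and planar cell polarity, went the opposite way. It had 861, 1040.2, 860.2 and 992 normalized counts in the control replicates, and 1839, 1482, 1506 and 1874 in the knockout replicates. All knockout libraries were above all control libraries, with a gap wider than the spread within either group. The mean rose from 938 ± 92.1 to 1675 ± 210.0 (SD, n = 4 each), 1.79-fold, with a log2 fold change of 0.83 (SE 0.14, adjusted p = 0.0036).

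FZD6, the partner of FZD3 in sequence, which is known from hair patterning and nail formation, was close to the detection limit. It had 8.85, 13.8, 4.30 and 11.3 normalized counts in the control replicates, and 9.59, 10.5, 6.77 and 15.7 in the knockout replicates. The groups overlapped throughout, and replicate 3 was the lowest library of both. The means of 9.56 ± 4.05 and 10.7 ± 3.75 (SD, n = 4 each) rested on 43 and 41 reads, and the ratio of reads, knockout over control at equal depth, was 1.12 with a 95% counting interval from 0.713 to 1.76. The log2 fold change was 0.19 (SE 0.44, adjusted p = 0.83), and it turned to -0.11 without control replicate 3 and to -0.0072 without IRF8 KO replicate 4.

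**Figure D2:**
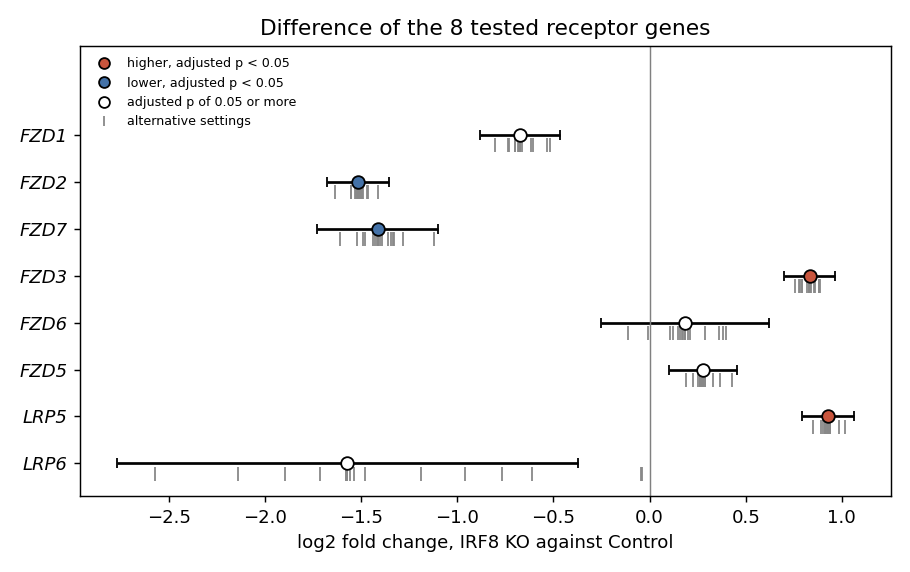
Log2 fold changes of the 8 tested receptors, IRF8 KO against control, with bars of 1 standard error, filled where the limma adjusted p was below 0.05 (red higher, blue lower), and grey ticks at the values under the alternative settings. FZD2 and FZD7 sit at -1.52 and -1.42, FZD3 and LRP5 between 0.83 and 0.93, and the ticks of LRP6 spread from -2.57 to -0.04.

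FZD5, a receptor of the β-catenin branch known from intestinal Paneth cells and the eye, had 248, 200.1, 268 and 185 normalized counts in the control replicates, and 275, 264, 278 and 266 in the knockout replicates. The knockout libraries were tightly grouped at the upper end of the control range, and control replicate 3 overlapped with them. The means were 225 ± 39.1 and 270 ± 6.81 (SD, n = 4 each), with a log2 fold change of 0.28 (SE 0.18, adjusted p = 0.328, exact permutation p = 0.0857). Within replicates 1 and 3 the difference was 0.10 on the log2 scale, and within replicates 2 and 4 it was 0.46.

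FZD8, the relative of FZD5 and a receptor of the same branch, was measured by single reads, 5, 7, 8 and 5 in the control replicates and 0, 1, 2 and 0 in the knockout replicates. In normalized counts the control libraries lay between 4.02 and 8.59 and the knockout libraries between 0 and 2.71. The groups did not overlap, with 25 reads in all in the control and 3 in the knockout group, but every knockout library was at or below the 3 reads that a count of 0 still allows. The ratio of reads at equal depth was 0.141, with a 95% counting interval from 0.0273 to 0.462, and the exact permutation p was 0.0286, the smallest value this design allows. FZD8 was left out of the test by the filter on the mean, and in a fit without the filter its adjusted p was 0.0212.

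FZD4, the receptor of norrin in retinal vessels, had 11, 2, 6 and 0 reads in the control replicates and 7, 6, 16 and 9 in the knockout replicates. The groups overlapped, and control replicate 4 held none of its reads while IRF8 KO replicate 3 held the most. In total there were 19 and 38 reads, a ratio of 2.35 at equal depth with a 95% counting interval from 1.32 to 4.32, which does not include the spread between libraries. The exact permutation test over the libraries gave p = 0.171, and a fit without the filter gave an adjusted p of 0.224.

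**Figure D3:**
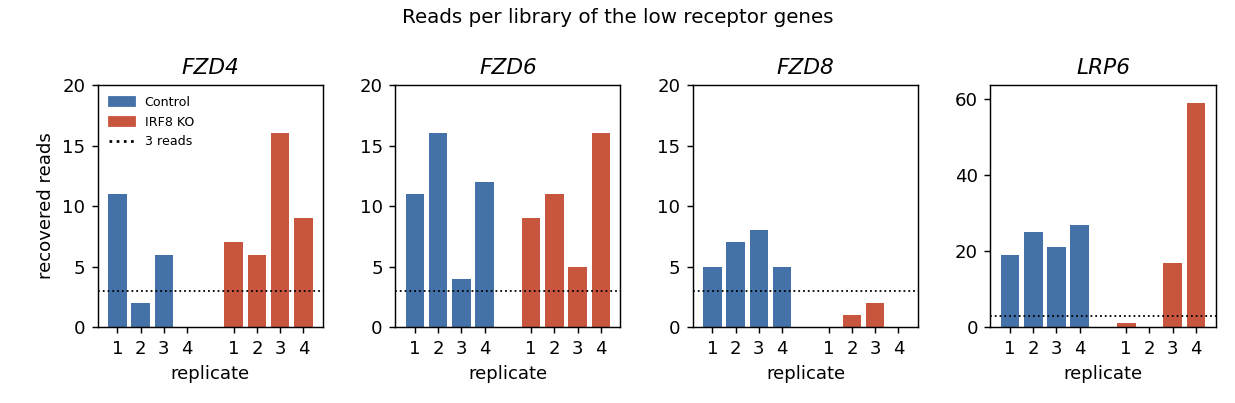
Reads per library of the 4 receptor genes with few reads, recovered from the normalized counts, by replicate number, control in blue and IRF8 KO in red, with a dotted line at 3 reads and a separate axis for LRP6. FZD8 had 5 to 8 reads in each control library and at most 2 in each knockout library, and LRP6 had 59 reads in IRF8 KO replicate 4 and none in replicate 2.

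LRP5, the co-receptor whose variants in humans change bone mass, was the receptor gene of the pair that was abundantly measured. It had 2067, 1950.2, 2069 and 2387 normalized counts in the control replicates, and 4222, 3329, 4704 and 3949.7 in the knockout replicates. The lowest knockout library was well above the highest control library. The mean rose from 2118 ± 187 to 4051 ± 574 (SD, n = 4 each), 1.91-fold, with a log2 fold change of 0.93 (SE 0.13, adjusted p = 0.00206). It stayed below the 2-fold criterion of the study, as did FZD3.

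LRP6, the second co-receptor, which in most tissues carries the same signal, had 19, 25, 21 and 27 reads in the control replicates. In the knockout replicates it had 1, 0, 17 and 59 reads, which corresponds to 1.07, 0, 23.0 and 58.0 normalized counts. The control libraries were close to each other, while of the knockout libraries replicates 1 and 2 were nearly without LRP6 reads, replicate 3 was at the control level and replicate 4 was above all others. The group totals of 92 and 77 reads gave a ratio of 0.984 at equal depth, with a 95% counting interval from 0.717 to 1.35, and the means were 21.2 ± 4.27 and 20.5 ± 27.2 (SD, n = 4 each). On the log2(count + 1) scale, on which the libraries near 0 weigh more, the difference was -1.57 (SE 1.20, adjusted p = 0.422, exact permutation p = 0.4), and count models on the recovered reads gave -0.05 with edgeR and -0.04 with DESeq2. No difference between the groups was therefore detectable for LRP6, and the spread among the knockout libraries was the main feature of this gene. IRF8 KO replicates 1 and 2 also stood apart from replicates 3 and 4 in the chromosome medians given above, and the part of this in the LRP6 values was not tested.

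The promoters of FZD1, FZD4, FZD5, FZD8 and LRP5 were available from RefSeq (GRCh38.p14), 250 bases before to 50 bases after the start, and were searched on both strands for 3 motifs. These were AANNGAAA, the core bound by interferon regulatory factors, GGAANNGAA, a composite with an ETS site as bound by IRF8 together with PU.1, and CTTTGAT, a core bound by the TCF/LEF factors at the end of the Wnt pathway. Of all 35116 promoters of that length, 22.8%, 7.79% and 2.62% hold these letters, and 0 of the 5 receptor promoters do. The bases before the start are shown for LRP5, the called receptor among the 5, and for FZD1, the 1 of the 5 whose test changed side with the replicate block, 5′ to 3′ on the plus strand with CpG dinucleotides in capitals.
LRP5, chr11:68312341-68312590: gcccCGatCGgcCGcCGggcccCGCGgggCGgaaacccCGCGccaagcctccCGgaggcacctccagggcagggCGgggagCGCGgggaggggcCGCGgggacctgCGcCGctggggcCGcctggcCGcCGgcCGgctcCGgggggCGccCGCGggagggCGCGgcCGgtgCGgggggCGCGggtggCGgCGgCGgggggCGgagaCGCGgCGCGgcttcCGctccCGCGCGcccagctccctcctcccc
FZD1, chr7:91264183-91264432: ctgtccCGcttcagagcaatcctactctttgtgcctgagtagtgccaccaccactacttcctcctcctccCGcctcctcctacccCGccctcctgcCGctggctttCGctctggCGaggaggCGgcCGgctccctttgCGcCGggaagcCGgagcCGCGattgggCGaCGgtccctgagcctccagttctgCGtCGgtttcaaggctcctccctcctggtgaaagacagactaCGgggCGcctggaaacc

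The LRP5 stretch consists of G and C to 87.2% and holds 43 CpG dinucleotides, and 99.9% of all promoters in the table have a lower GC content. The FZD1 stretch has 65.2% GC and 19 CpG dinucleotides. The median over all promoters is 58% and 11. Among the other receptors in the table, FZD4 has 80.8% GC, FZD5 has 76.8% and FZD8 has 65.2%. The absence of a motif says only that these letters are not in this window, and binding of IRF8 was not analysed here.

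A ratio of genes within a library is free of the scaling of the libraries. FZD2 and FZD3 were chosen as a lower and a higher called gene, so the direction of their ratio restates those calls and is no separate support. FZD2 per FZD3, expressed relative to the control mean on the log scale, was 1.07, 0.925, 1.15 and 0.88 in the control replicates and 0.143, 0.281, 0.232 and 0.158 in the knockout replicates. The ratio was thus several-fold lower in every knockout library, lowest in replicate 1 and highest in replicate 2. The ratio of FZD7, also a called lower gene, to FZD3 lay between -0.10 and 0.11 on the log2 scale in control libraries. In knockout libraries it lay between -3.28 and -1.49. Both ratios share the denominator FZD3, so the FZD7 ratio is no separate support either. Such ratios show that the genes changed unequally, and not which of them changed.

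Across genes, control replicates 1 and 3 deviated together from their group mean (correlation 0.83), as did control replicates 2 and 4 (0.71). Each knockout replicate deviated with both controls of its pair (0.37 to 0.50). Among the knockout replicates the correlation was -0.13 for 1 and 3 and 0.05 for 2 and 4. The other combinations of knockout replicates lay between -0.68 and -0.16. Deviations from a shared group mean lean to negative correlations, so these values do not show whether the knockout replicates deviated together. The called receptors were also compared within replicates 1 and 3 and within replicates 2 and 4. FZD2 differed by -1.65 on the log2 scale in replicates 1 and 3 and by -1.38 in replicates 2 and 4. FZD7 differed by -1.66 and -1.17, FZD3 by 0.95 and 0.71, and LRP5 by 1.11 and 0.75, in the same order. That the 2 control and the 2 knockout libraries were separate for these 4 genes follows from the separate full groups and is no further support. Each difference was larger in replicates 1 and 3.

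The called receptors lie on different chromosomes, FZD2 on 17, FZD7 on 2, FZD3 on 8 and LRP5 on 11. The median log2 fold change over all tested genes of these chromosomes lay between 0.0036 (chromosome 11) and 0.09 (chromosome 8). Among the 10 tested genes nearest in order to each receptor, 5 on either side, the median was 0.05 for FZD2, 0.15 for FZD7, 0.47 for FZD3 and -0.08 for LRP5. Next to FZD2 the progranulin gene GRN was higher (log2 fold change 1.02, adjusted p = 0.00784), opposite to FZD2 itself. Next to FZD3 the phosphatase gene DUSP4 was lower (-2.86, adjusted p = 0.00019), opposite to FZD3. The neighbours of FZD3 ranged from -2.86 to 1.35, and their median of 0.47 had the same sign as FZD3. Next to LRP5 the gene C11orf24 was lower (-0.86, adjusted p = 0.00452), opposite to LRP5. The part of the chromosome region in the receptor differences was not tested. Near FZD7, TMEM237 was higher (0.39, adjusted p = 0.0434) and FAM117B was lower (-0.44, adjusted p = 0.0364).

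Of the remaining receptors that bind Wnt, RYK showed the largest change. RYK, a kinase-dead receptor that binds Wnts through its own domain and can pair with Frizzleds, had between 269 and 360 normalized counts in the control and between 2203 and 3140 in the knockout libraries. It was 8.75-fold higher by group means, with a log2 fold change of 3.12 (SE 0.17, adjusted p = 1.48e-05). RYK was the only 1 of the 4 tested alternative receptors to pass the test, beside 18.2% of all tested genes. With the replicate block 2 of the 4 passed, beside 28.7% of all tested genes called in that fit. Of the remaining Frizzleds, FZD9 had 16.2 ± 4.86 and 11.1 ± 10.02 normalized counts (SD, n = 4 each, log2 fold change -0.79, adjusted p = 0.394), FZD10 was 0 in every library, and the related Hedgehog transducer SMO had at most 7.46. In the LDL receptor family, to which LRP5 and LRP6 belong by their repeats, 2 of 9 tested genes passed, both lower, beside 18.2% of all tested genes. With the block 4 passed, 2 lower and 2 higher, beside 28.7% of all tested genes. SORL1, a sorting receptor, fell from 199 ± 30.0 to 18.6 ± 17.4 (SD, n = 4 each, log2 fold change -4.05, adjusted p = 0.00975). LRP11 fell from 62.5 ± 11.0 to 25.2 ± 10.3 (log2 fold change -1.36, adjusted p = 0.0291), a call that was lost without control replicate 1, 2 or 3 or IRF8 KO replicate 4, with adjusted p between 0.0633 and 0.0793.

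Among the genes that mature, shed or remove Wnt receptors, 4 of 12 tested passed, 2 in each direction, beside 18.2% of all tested genes. With the block 6 passed, 3 in each direction, beside 28.7% of all tested genes. ATP6AP2, an adaptor that links LRP6 to the proton pump in endosomes, rose from 5941 ± 527 to 11822 ± 1940.0 normalized counts (SD, n = 4 each, log2 fold change 0.98, adjusted p = 0.00222). MESD, the chaperone needed for folding of LRP5 and LRP6, rose from 2656 ± 74.5 to 3677 ± 481 (log2 fold change 0.46, adjusted p = 0.0291). KREMEN1, which removes LRP6 from the surface together with Dickkopf proteins, fell from 2934 ± 675 to 1176 ± 549 (-1.41, adjusted p = 0.0183). ZNRF3, the ubiquitin ligase that marks Frizzleds for degradation and is itself a Wnt target, fell from 1015 ± 242 to 562 ± 69.0 (-0.83, adjusted p = 0.0186). The calls of MESD (without any control replicate or IRF8 KO replicate 1 or 3, adjusted p between 0.0567 and 0.0768), of KREMEN1 (0.0511 without control replicate 4 and 0.0544 without IRF8 KO replicate 3) and of ZNRF3 (without replicate 1 or 3 of either group, between 0.05 and 0.0556) were lost with 1 library less, and that of ATP6AP2 held without any 1 library.

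On the ligand side, 5 of the 20 listed ligands had enough reads to be tested, and WNT10B, a ligand of the β-catenin branch, was the 1 that passed, with 2 passing under the block. It fell from a mean of 1178 ± 348 to 583 ± 162 (SD, n = 4 each, log2 fold change -1.01, adjusted p = 0.034). Of the 5 tested genes of the list for ligand processing and secretion, which also holds R-spondins, 1 fell and 1 rose. With the block 1 was lower and 2 were higher. For both lists the share called over all tested genes was 18.2%, and 28.7% with the block. PORCN, the acyltransferase that puts the lipid on Wnts, fell from 259 ± 90.2 to 103 ± 48.2 (-1.36, adjusted p = 0.0387). TRABD2A, a protease that inactivates Wnts, rose from 28.9 ± 3.07 to 157 ± 80.8 (2.18, adjusted p = 0.0147). The secreted antagonist DKK2, a ligand of LRP5 and LRP6 and the only 1 of 13 listed antagonists with enough reads, fell from 122 ± 26.8 to 45.1 ± 12.9 (-1.42, adjusted p = 0.0081). The call of WNT10B was lost without replicate 1 or 3 of the control or replicate 1 or 4 of the IRF8 KO group (adjusted p between 0.0812 and 0.0895), and that of PORCN without control replicate 2, 3 or 4 or IRF8 KO replicate 1, 3 or 4 (between 0.0521 and 0.1).

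Directly below the receptors, 5 of 17 tested transducers passed, beside 18.2% of all tested genes. With the block 7 passed, beside 28.7% of all tested genes. DVL1 and DVL3, which encode Dishevelled proteins that bind the Frizzled tail, were lower. DVL1 fell from a mean of 2500.4 ± 231 to 1738 ± 208 (SD, n = 4 each, log2 fold change -0.53, adjusted p = 0.0224), and DVL3 from 7553 ± 757 to 4842 ± 1055 (-0.66, adjusted p = 0.0251). The kinases CSNK1G1 (0.39, adjusted p = 0.0468) and CSNK1G3 (0.53, adjusted p = 0.0433), of a casein kinase group that phosphorylates the LRP tail, were higher, as was the G protein subunit GNAQ (1.16, adjusted p = 0.0338). Each of these 5 calls was lost when single libraries were left out. That of DVL1 was lost without control replicate 2 or 4 or IRF8 KO replicate 1 or 4 (adjusted p between 0.0513 and 0.0571), that of DVL3 without control replicate 1, 2 or 4 or IRF8 KO replicate 1 or 3 (0.0526 to 0.067), and that of GNAQ without control replicate 2 or 4 or IRF8 KO replicate 1, 3 or 4 (0.0713 to 0.0892). CSNK1G1 lost its call without any 1 of the libraries (0.0506 to 0.125), and CSNK1G3 without any but IRF8 KO replicate 3 (0.0551 to 0.104). CSNK1G3 lies on chromosome 5, whose median was higher in the knockout libraries. Relative to the chromosome medians, CSNK1G3 was at 0.30 (adjusted p = 0.17) and CSNK1G1 at 0.40 (adjusted p = 0.0619). Neither was called there, while DVL1, DVL3 and GNAQ stayed called. Of the 6 tested planar polarity partners of FZD3 and FZD6, 0 passed with limma or with the replicate block, and their most abundantly counted gene PRICKLE1 had a log2 fold change of -0.27 (adjusted p = 0.471).

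Of 12 listed common target genes of β-catenin signaling, 8 had enough reads to be tested. Of these 3 passed, all lower, beside 9.56% of all tested genes called lower. With the replicate block 6 passed, again all lower, beside 14.6% of all tested genes called lower in that fit. By sign alone 6 of the 8 were lower. MYC (log2 fold change 0.16, adjusted p = 0.4) and NOTUM (0.65, adjusted p = 0.329) were higher and not called. CCND1 was lower (-1.95) at an adjusted p of 0.052, and of 0.0157 with the replicate block. AXIN2, the feedback inhibitor most used as a readout of the pathway, fell from a mean of 160.0 ± 16.1 to 72.9 ± 17.3 (SD, n = 4 each, log2 fold change -1.15, adjusted p = 0.00881). NKD1, a feedback inhibitor that binds Dishevelled, fell from 517 ± 97.9 to 172 ± 86.6 (-1.71, adjusted p = 0.0119), and ZNRF3 was the third target gene called in the main fit. The call of AXIN2 held without any 1 library and was lost under quantile scaling (adjusted p = 0.0551). Over all roles, without the examined Frizzled and LRP receptors and the LDL receptor family, 16 of 56 tested genes passed (28.6%, beside 18.2% of all tested genes). Of these 9 were lower and 7 higher, and the median log2 fold change of the 56 in the main fit was -0.17. With 1 library left out between 7 and 18 passed. With the replicate block 25 passed, beside 28.7% of all tested genes called in that fit.

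**Figure D4:**
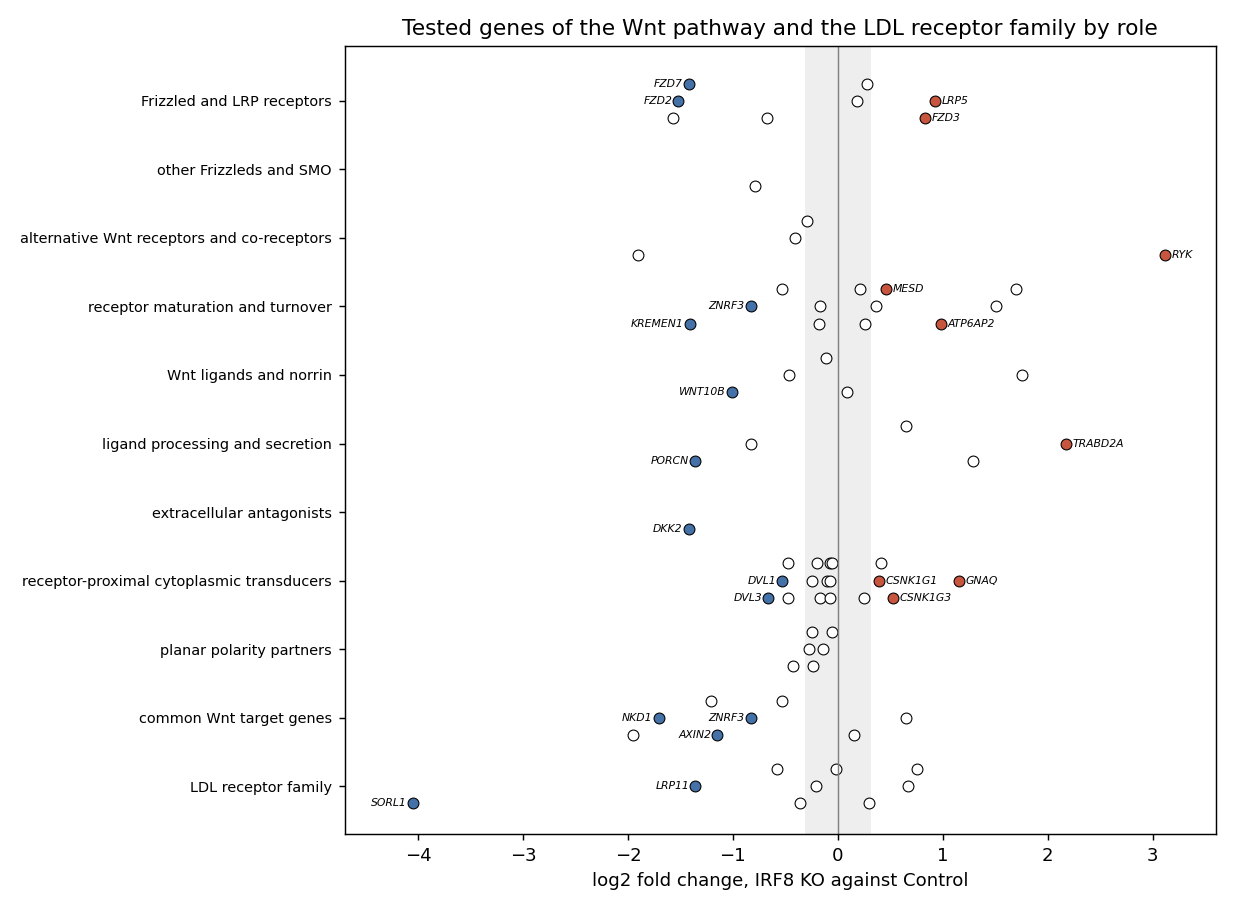
Log2 fold changes, IRF8 KO against control, of the tested genes of each list, 1 row per role and 1 point per gene, filled and named where the limma adjusted p was below 0.05 (red higher, blue lower), with a grey band over the quartiles of all tested genes (-0.30 to 0.30). Called genes of the receptor, turnover, secretion and transducer rows lie on both sides of 0, RYK is farthest to the right and SORL1 farthest to the left.

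The cell identity markers moved with the groups as well. Of 13 myeloid or monocytic markers, all tested, 5 were called higher in knockout libraries (ITGAM, MPO, CD68, CD4 and FCGR1A) and 0 lower, beside 8.65% of all tested genes called higher. By sign alone 9 of the 13 were higher and 4 lower. The lower ones were CSF2RA (log2 fold change -0.69, adjusted p = 0.0669), CD33 (-0.34, adjusted p = 0.176), CSF1R (-0.27, adjusted p = 0.457) and FLT3 (-0.21, adjusted p = 0.483). With the replicate block, where 28.7% of all tested genes were called, 7 of the 13 markers were higher and 1, CD33, was lower. The summed level of the 13 markers was between 85997 and 101039 normalized counts in control and between 135474 and 152868 in IRF8 KO replicates 2, 3 and 4. IRF8 KO replicate 1 reached 370950, of which LYZ, which did not pass the test (adjusted p = 0.06; 0.00213 with the block), made up 248604. Without LYZ the sums lay between 71239 and 99306 in control and between 106788 and 122346 in knockout libraries. MPO, the peroxidase of granulocyte and monocyte precursors, rose from 767 ± 54.6 to 13378 ± 3888 (SD, n = 4 each, log2 fold change 4.08, adjusted p = 9.86e-06). Of 5 epithelial markers, KRT8 (-3.51, adjusted p = 0.00335) and KRT18 (-6.08, adjusted p = 6.6e-06) were lower, with a summed level of the list between 1473 and 3728 in control and between 60.7 and 242 in knockout libraries, while KRT19 was 0 in every library and EPCAM and CDH1 had a mean of at most 1.17 in either group. Of the B cell markers, CD79A did not pass the test (log2 fold change 0.60, adjusted p = 0.586) and MS4A1 was 0 in every library. The 4 T cell markers summed to at most 6.04 normalized counts in any library, and of the erythroid markers HBB was 0 in every library. Of 4 fibroblast markers 2 were tested and 0 passed with limma or with the replicate block, COL3A1 was 0 in every library, and the list summed to between 31.1 and 87.1 in control and between 22.4 and 417 in knockout libraries. The part of these shifts in the receptor differences was not tested.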

How the data were processed

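RNA of MV4-11 cells was sequenced by the authors from poly(A) stranded libraries (TruSeq), 4 control and 4 IRF8 KO. Reads were aligned with RNA-Star to the GENCODE v32 transcriptome, counted per gene with featureCounts and scaled with DESeq2. The strand setting and the handling of reads that match several genes are not stated in the paper or labels. Deposited were values that are a signal per gene, the count of a library divided by its size factor. Of 19590 genes, 2197 were 0 in every library. The columns named wild type were assigned to control replicates by their number. In each library 100% of values were whole reads within 0.01. The authors' table of fold changes and p-values and the ChIP-Seq samples were not used here.

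log2(normalized count + 1) was compared with limma 3.58.1 (R 4.3.3, trended and robust prior, Benjamini-Hochberg adjustment) over 13110 genes averaging at least 10. Single genes were also compared with two-sided exact permutation tests (smallest p 0.029). Ratios of reads have exact 95% intervals that cover counting error only. As to pairing, the correlation across genes between the deviations of same-numbered libraries was 0.37, 0.48, 0.45 and 0.50 from replicate 1 through 4. No source says what a number marks. The main fit has no block, and the blocked fit is given where it changes a call or a count of calls. Alternatives were pseudocounts of 0.5 and 5, no filter or a mean of at least 100, upper quartile, quantile and chromosome-median scaling, limma without trend, edgeR 4.0.16 and DESeq2 1.42.0 on recovered reads, a replicate block, replicates 1 and 3 against 2 and 4 as covariate, and each library left out.

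The members, gene lists, tests and alternatives were chosen with earlier results of these data known. Besides the 10 receptors and IRF8, the text names each called gene of a list or, where a list has none, its gene with the highest mean, the cell type markers, and called neighbours on the chromosome. Of the markers, 2 are not reported here. FZD10 and SMO were named to account for their list, and MYC, NOTUM and CCND1 for theirs. RefSeq (GRCh38.p14) gave gene order for 19179 genes and promoters for 5 receptors.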

Additional observations from a re-analysis of the deposited data

How the results depend on the processing

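FZD2, FZD3, FZD7 and LRP5 were called with the same sign in all 20 alternatives. The number of called receptors was 4 or 5, and FZD1 was the fifth with upper quartile scaling (adjusted p = 0.0402), limma without trend (0.0469), edgeR (0.0458), DESeq2 (0.00863), the replicate block (0.0213), the covariate for replicates 1 and 3 (0.00961) and without control replicate 2 (0.0342), while it rose to 0.216 with quantile scaling. FZD6 reversed without control replicate 3 (-0.11) and without IRF8 KO replicate 4 (-0.0072), and with 1 library left out lay between -0.11 and 0.38. For LRP6 the log2 fold change was between -2.57 and -0.61 with 1 library left out. That of IRF8 was between -2.46 and -1.65, with its call lost at -1.97, -1.89 and -2.12. The 16 called genes of the remaining Wnt pathway became 25 with the replicate block and 27 with the covariate, 7 to 10 when any library but IRF8 KO replicate 2 was left out, and 18 without that one. Over all tested genes 2387 were called, 3769 with the replicate block, 4333 with the covariate, 3402 with DESeq2, 2333 with edgeR, and between 1665 and 2442 with 1 library left out. With the block, FZD1 was the 1 receptor whose call changed. Scaling moved the median of all tested genes by at most 0.02 on the log2 scale. Depth limited FZD4, FZD6, FZD8 and LRP6, which held at most 59 reads in any library. The cause of these changes was not tested.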
